A study of Mus musculus with 12 samples.

Results

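The cell cycle and mitosis genes described here are 39 genes chosen by name: 9 of the G1 phase and its passage into S phase, 12 of DNA replication, 16 of mitosis and 2 inhibitors of cyclin-dependent kinases. Of these, 38 had a probe set with a single gene symbol among the 18194 genes measured on the arrays, and 95 probe sets named them in all. Ccnb1, which encodes cyclin B1, was not named in the array annotation used here and is not analysed here. Each gene was represented by its probe set with the highest mean over the 12 arrays, a choice that used no difference between groups.

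The study compared ventricles of the embryonic mouse heart with and without Nos3, the gene of endothelial nitric oxide synthase, at 14.5 days post coitum. The wild-type (WT) embryos were of the CD1 strain, and the Nos3-/- embryos were of the strain B6.129P2-Nos3tm1unc/J, so that the effect of the lost gene and that of the strain cannot be told apart. Microdissected left and right ventricles gave 4 groups of 3 arrays: WT left, WT right, Nos3-/- left and Nos3-/- right. For each array, ventricles of 15 to 30 embryos were pooled; the embryos carried the deletion in every cell, and no group was treated. The tests therefore measure the spread between pools on arrays, not between single embryos.

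A cell that enters the cycle makes D-type cyclins, which bind Cdk4 and Cdk6 and release E2F factors, and cyclin E with Cdk2 then carries it into S phase. The Mcm proteins form the helicase that opens DNA at replication origins, where Cdc6 loads it, while Cdk1 with its cyclins drives mitosis and spindle, kinetochore and checkpoint proteins separate the chromosomes. In the embryonic heart the muscle cells themselves still divide, and the inhibitor Cdkn1b (p27) is known for its part in their exit from the cycle.

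The start-site sequences of 6 members that differed between genotypes are shown because many genes of replication carry E2F sites and many genes of mitosis carry the CHR and CCAAT elements. The windows run from 250 bases before to 50 bases after the annotated start and are from RefSeq, build GRCm38.p6. They are written 5′ to 3′ on the strand of the gene. Capitals mark the letters searched on both strands: E2F as TTTCCCGC, TTTGGCGC, TTTCGCGC or TTTGCCGC, CHR as TTTGAA or TTCGAA, and the CCAAT box as CCAAT. The windows are Mcm3 at chr1:20820263-20820562 (minus strand), Mcm6 at chr1:128359656-128359955 (minus strand), Cdc6 at chr11:98907901-98908200 (plus strand), Cdk1 at chr10:69352863-69353162 (minus strand), Bub1b at chr2:118597961-118598260 (plus strand) and Cdkn1b at chr6:134920151-134920450 (plus strand).
Mcm3: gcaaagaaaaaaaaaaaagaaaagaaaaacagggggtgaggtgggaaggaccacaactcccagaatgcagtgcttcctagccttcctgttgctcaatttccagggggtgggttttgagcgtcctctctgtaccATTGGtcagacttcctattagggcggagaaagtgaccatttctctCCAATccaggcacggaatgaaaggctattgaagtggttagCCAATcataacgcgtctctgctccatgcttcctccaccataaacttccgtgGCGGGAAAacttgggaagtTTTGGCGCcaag
Mcm6: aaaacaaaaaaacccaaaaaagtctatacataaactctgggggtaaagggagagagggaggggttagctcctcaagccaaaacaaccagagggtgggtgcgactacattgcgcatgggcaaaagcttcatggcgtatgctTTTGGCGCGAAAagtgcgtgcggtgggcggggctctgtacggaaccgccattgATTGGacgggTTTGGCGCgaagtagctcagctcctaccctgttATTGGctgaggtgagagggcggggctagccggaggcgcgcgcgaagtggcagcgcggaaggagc
Cdc6: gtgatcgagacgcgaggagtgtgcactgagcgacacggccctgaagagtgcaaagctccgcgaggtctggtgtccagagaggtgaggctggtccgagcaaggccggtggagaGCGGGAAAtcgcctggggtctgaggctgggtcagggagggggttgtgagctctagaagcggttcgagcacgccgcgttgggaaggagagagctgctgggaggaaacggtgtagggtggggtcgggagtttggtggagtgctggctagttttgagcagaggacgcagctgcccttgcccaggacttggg
Cdk1: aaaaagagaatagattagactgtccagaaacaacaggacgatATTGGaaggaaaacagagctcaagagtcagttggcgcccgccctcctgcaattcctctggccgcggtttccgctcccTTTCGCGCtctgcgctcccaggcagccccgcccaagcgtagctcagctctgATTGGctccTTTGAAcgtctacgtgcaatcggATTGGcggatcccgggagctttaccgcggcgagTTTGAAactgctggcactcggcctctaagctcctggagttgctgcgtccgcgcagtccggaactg
Bub1b: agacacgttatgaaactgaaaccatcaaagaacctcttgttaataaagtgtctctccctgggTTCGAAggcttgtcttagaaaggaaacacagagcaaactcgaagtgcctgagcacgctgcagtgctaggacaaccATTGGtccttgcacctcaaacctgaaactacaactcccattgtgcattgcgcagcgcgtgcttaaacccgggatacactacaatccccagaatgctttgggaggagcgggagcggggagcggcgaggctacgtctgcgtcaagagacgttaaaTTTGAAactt
Cdkn1b: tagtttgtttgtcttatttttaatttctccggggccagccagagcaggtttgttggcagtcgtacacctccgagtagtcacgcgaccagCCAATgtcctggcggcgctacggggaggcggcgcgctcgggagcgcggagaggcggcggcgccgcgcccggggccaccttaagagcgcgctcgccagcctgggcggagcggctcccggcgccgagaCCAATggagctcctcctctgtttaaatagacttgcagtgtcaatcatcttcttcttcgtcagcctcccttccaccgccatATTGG

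The Mcm3 window held 2 E2F matches, both after the start, and 3 CCAAT boxes. The Mcm6 window held 3 E2F matches, of which the pair at positions -110 and -106 from the start base overlap, and the Cdc6 window held 1 at position -138. In the Cdk1 window there were 1 E2F match, 2 CHR matches and 3 CCAAT boxes. The Bub1b window held 2 CHR matches and 1 CCAAT box, and that of Cdkn1b 3 CCAAT boxes alone.

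Windows were at hand for 32 of the 39 listed genes, 35 windows in all because some genes have more than 1 start. An E2F match was found in 5 of 12 windows of replication genes (41.7%), in 1 of 13 mitosis windows (7.69%) and in 2.26% of all 32851 mouse windows of this length. The CHR letters were found in 10 of 13 mitosis windows (76.9%), in 3 of 12 replication windows (25%), in none of the 7 G1/S windows and in 19.2% of all windows. CCAAT boxes were found in 12 of 13 mitosis windows (92.3%), 10 of 12 replication windows (83.3%) and 37.4% of all windows. These members' windows are also richer in G and C, with a median of 58.7% against 52.7% over all windows. The replication genes with an E2F match were Cdc6, Mcm3, Mcm5, Mcm6 and Mcm7. A match describes the letters of a window and no more.

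The ventricles were checked against marker genes. The mean of 8 cardiomyocyte markers was between 13.76 and 14.17 on the log2 scale on every array, and Myl2, the ventricular myosin light chain, and Tnnt2, cardiac troponin T, were among them. The mean of 4 atrial markers was 10.38 to 10.69 in WT left and 10.97 to 11.29 in WT right. In Nos3-/- it was 10.57 to 10.86 on the left and 11.16 to 11.39 on the right. Whether the pools held atrial tissue was not tested. Myl2 ran from 15.01 to 15.05, near the top of the scale. Deposited values ran from 2.42 to 15.19 with a median of 5.67, and arrays correlated with one another at 0.983 to 0.998 across genes. Some arrays stood apart. The poly-A control RNAs added during labelling averaged 8.89 to 8.94 in WT left, 8.05 to 8.96 in WT right, 8.05 to 8.47 in Nos3-/- left and 7.35 to 8.37 in Nos3-/- right. They were thus higher in all 3 WT left arrays than in any Nos3-/- array, and only WT right held both kinds. Nuclear RNA was taken as the mean of the transcripts Malat1, Meg3, Kcnq1ot1 and Airn, and its retention was not measured. This mean was highest in WT left replicate 2 (11.26) and lowest in Nos3-/- left replicate 3 (8.64). WT right replicate 3 had the lowest array weight, 0.29. For the members called, the calls lost without these arrays or with the poly-A level as a term are therefore given, and for other cell cycle genes their number and the values that moved most.

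Of the 38 members, 37 had a mean above the median of all values. The exception was Tyms, the thymidylate synthase gene, with a mean of 5.02 and values from 3.94 to 6.03. Across the 12 arrays, Ccnb2 had the narrowest range, 0.25, and Ccnd2 one of 1.05. The 9 G1/S genes averaged 9.77 ± 0.06 (SD, n = 3 arrays) in WT left and 9.96 ± 0.05 in Nos3-/- left, and 9.78 ± 0.03 in WT right and 9.90 ± 0.01 in Nos3-/- right. The 12 replication genes averaged 10.26 ± 0.03, 10.47 ± 0.02, 10.24 ± 0.10 and 10.32 ± 0.03 in the same order. The 15 mitosis genes averaged 10.40 ± 0.08, 10.53 ± 0.03, 10.34 ± 0.14 and 10.45 ± 0.02. The wider spread of WT right came with its replicate 3, the lowest array of the series in both the replication and the mitosis mean, at 10.13 and 10.18.

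**Figure D1:**
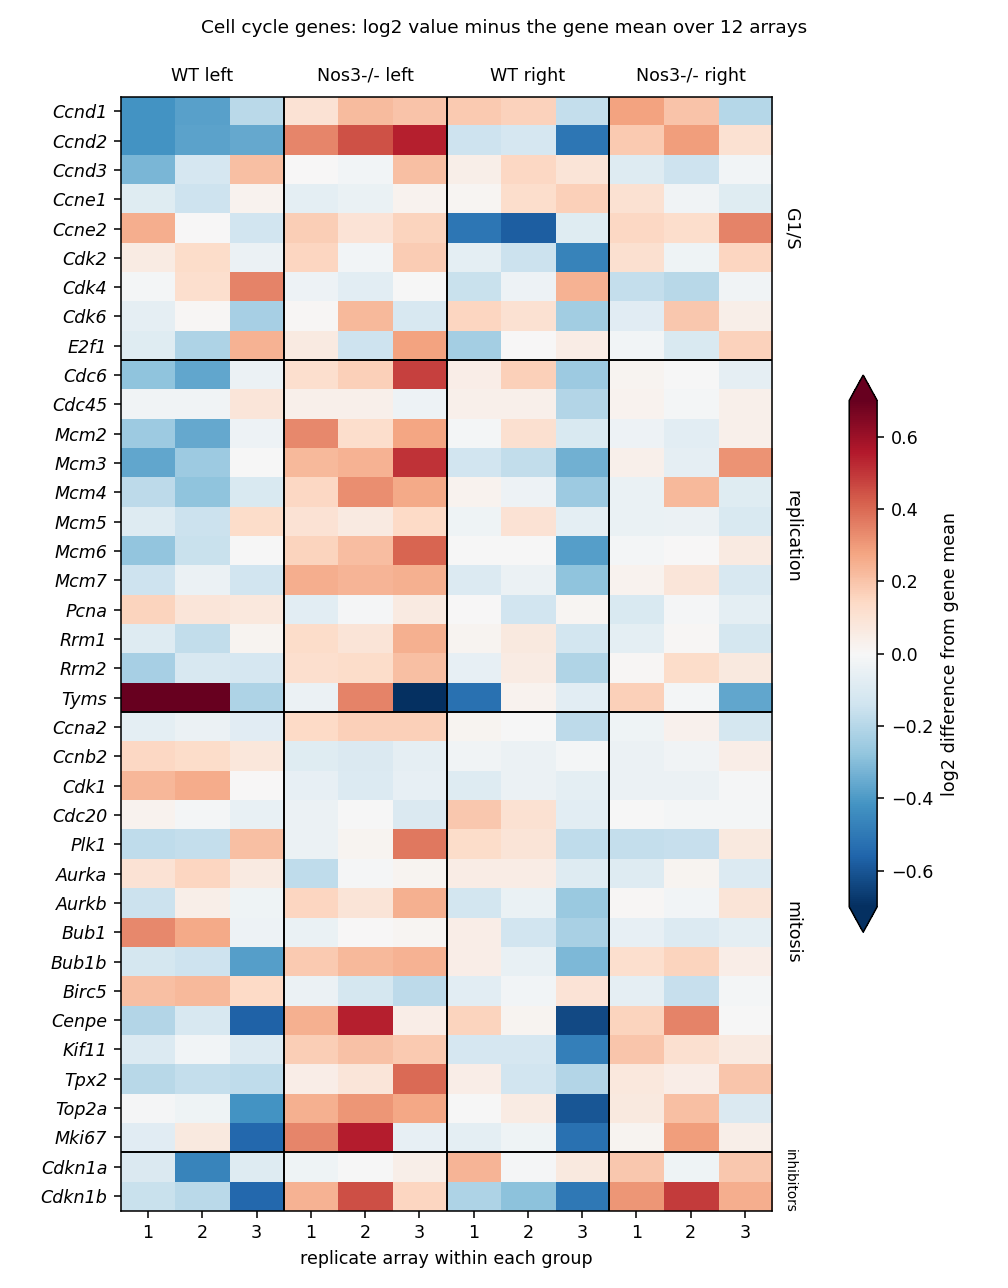
Each cell is a gene's log2 value on 1 array minus that gene's mean over the 12 arrays, with genes ordered by phase and arrays by group (red above, blue below the mean). The Mcm rows are red in Nos3-/- left and mostly blue in WT left, where Mcm5 in replicate 3 lies above its mean. The Ccnd2 row is red in both Nos3-/- groups, and WT right replicate 3 is blue in most rows.

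In the left ventricle 13 members were higher and 2 lower in Nos3-/- than in WT, and 23 did not pass the test. A gene is called here when limma's p, adjusted by Benjamini-Hochberg over all 18194 genes, was under 0.05. The calls made up 39.5% of the members against 30.9% of all genes: 34.2% of members against 18.6% of all genes in the higher direction, and 5.26% against 12.3% in the lower. The median difference of the members was 0.22 on the log2 scale and that of all genes -0.01, and 29 of the 38 differences were positive. Before adjustment, 23 members (60.5%) had p under 0.05, against 41.7% of all genes. The 3 values of one genotype all lay above those of the other for 19 members in the Nos3-/- direction and for 5 in the WT direction, against 23.8% and 20.6% of all genes. Cell number and RNA per cell cannot be told apart in such bulk tissue, so that a higher value may mean more cells in cycle or more RNA in each.

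**Figure D2:**
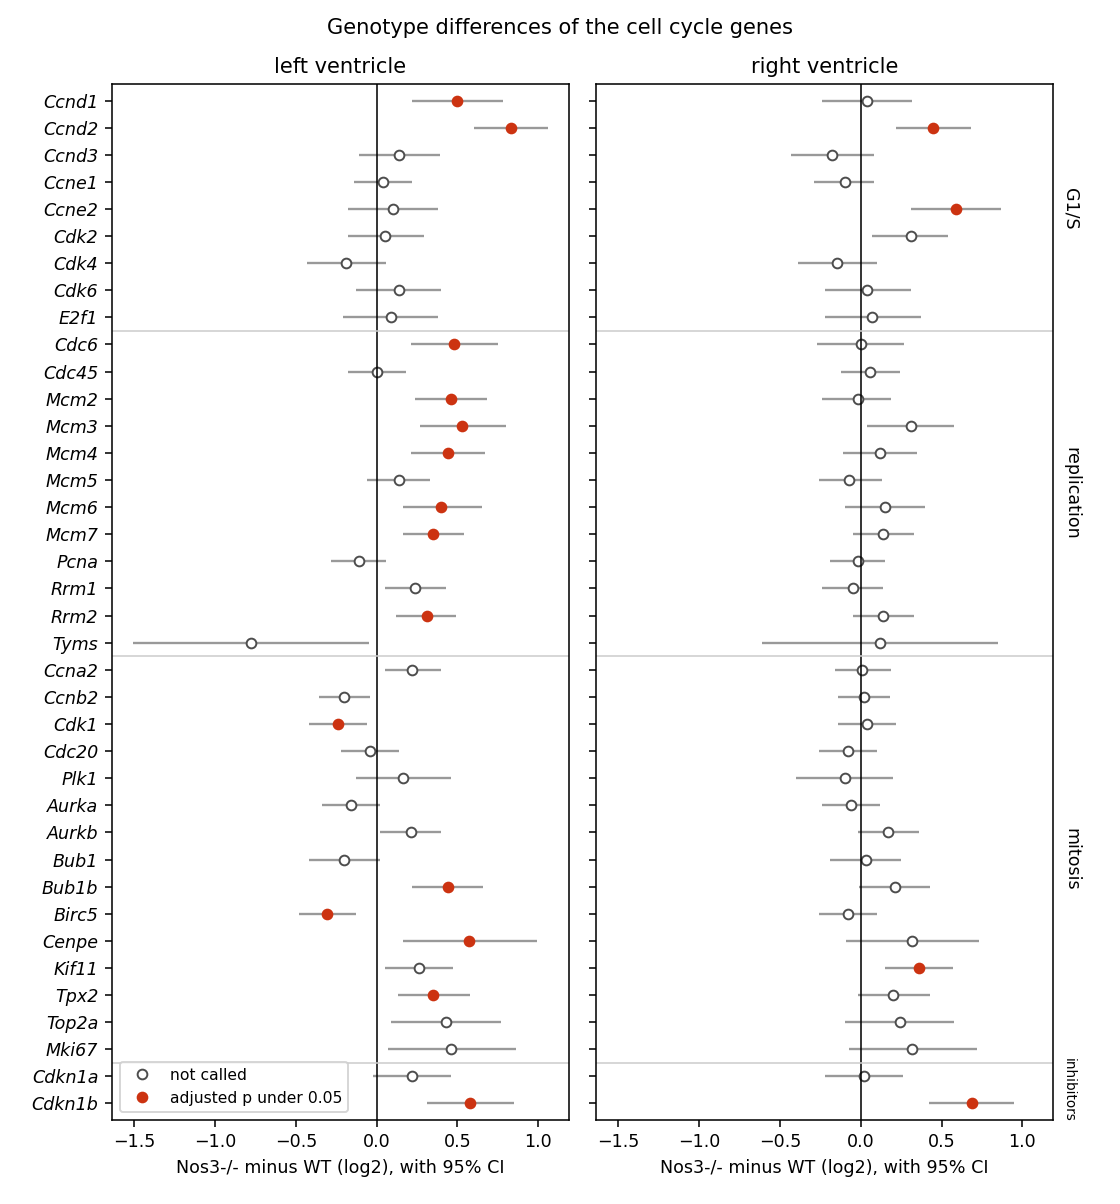
Points give the difference Nos3-/- minus WT on the log2 scale for the 38 members, with limma's 95% confidence interval, in the left and right ventricle; filled points passed the adjusted threshold of 0.05. Filled points crowd the replication rows on the left, where 7 of 12 are filled, and are absent from those rows on the right. Of all genes, 30.9% passed on the left and 8.19% on the right.

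Among the G1/S genes, both Ccnd2 and Ccnd1 rose in the left ventricle. Ccnd2, cyclin D2, measured 11.84, 11.88 and 11.90 in the WT left pools and 12.60, 12.70 and 12.80 in the Nos3-/- left pools. The groups were separated by a wide gap, and the difference was 0.83 (SE 0.11, limma adjusted p = 0.000147), a 1.77-fold higher level. All 7 probe sets of Ccnd2 were higher, the other 6 by 0.96 to 1.32. This was the member whose call held in all 23 other processing settings. Ccnd1, cyclin D1, measured 9.74, 9.78 and 9.97 in WT left and 10.26, 10.38 and 10.36 in Nos3-/- left, again without overlap. The difference was 0.50 (SE 0.13, limma adjusted p = 0.0102), and its 2 other probe sets were higher by 0.37 and 0.69. With the poly-A level as a term the Ccnd1 difference was 0.26 (limma adjusted p = 0.176). The other G1/S genes did not pass the test. Ccnd3, cyclin D3, differed by 0.14, Cdk4 by -0.19, Cdk6 by 0.14 and Cdk2 by 0.05. Ccne1 differed by 0.04, Ccne2 by 0.10 and the transcription factor gene E2f1 by 0.09.

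The replication genes held the most calls: 7 of 12 rose in the left ventricle (58.3%, against 18.6% of all genes) and none fell (against 12.3%). Their median difference was 0.33, against -0.01 over all genes. Mcm3, a subunit of the replicative helicase, measured 9.64, 9.75 and 10.00 in WT left and 10.23, 10.25 and 10.51 in Nos3-/- left. The lowest Nos3-/- pool lay above the highest WT pool, and the difference was 0.53 (SE 0.12, limma adjusted p = 0.00577). Mcm2, another helicase subunit, measured 10.40, 10.30 and 10.62 in WT left against 10.99, 10.78 and 10.93 in Nos3-/- left, a difference of 0.46 (SE 0.10, limma adjusted p = 0.00403). Cdc6, which loads the helicase, measured 7.89, 7.81 and 8.13 in WT left and 8.29, 8.34 and 8.65 in Nos3-/- left. Here too the groups did not overlap, with a difference of 0.48 (SE 0.13, limma adjusted p = 0.0109). Mcm4 measured 10.62, 10.52 and 10.70 in WT left and 10.95, 11.13 and 11.07 in Nos3-/- left. Its difference was 0.44 (SE 0.11, limma adjusted p = 0.00747), and its other probe set was higher by 1.09.

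The remaining helicase genes rose less or did not pass the test. Mcm6 was at 10.99 ± 0.14 in WT left and 11.39 ± 0.13 in Nos3-/- left (SD, n = 3), a difference of 0.40 with a limma adjusted p of 0.0166. Mcm7 was at 12.21 ± 0.06 and 12.56 ± 0.01, a difference of 0.35 with a limma adjusted p of 0.00837, and its 3 other probe sets were higher by 0.08 to 0.37. Mcm5, the only one of the 6 that was not called, differed by 0.14 (limma adjusted p = 0.273), and its 2 other probe sets by -0.10 and 0.16. Rrm2, the regulated subunit of ribonucleotide reductase, which makes deoxynucleotides, rose by 0.31 (limma adjusted p = 0.0169), and Rrm1, the partner subunit, differed by 0.24 (limma adjusted p = 0.0575). Pcna, the sliding clamp, differed by -0.11, and Cdc45, which joins the active helicase, by 0.00. Tyms differed by -0.78 with an SE of 0.34, so wide that its limma adjusted p was 0.0963. Of the replication genes with an E2F match in their window, Cdc6, Mcm3, Mcm6 and Mcm7 rose and Mcm5 did not pass, and of those with a window but no match, Mcm2 and Rrm2 rose and Cdc45, Pcna, Rrm1 and Tyms did not pass.

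Some of these calls were lost when 1 array was left out, which also leaves fewer arrays for the test. Cdc6, Mcm6, Rrm2 and, among the mitosis genes below, Birc5 were not called without Nos3-/- left replicate 3, and Mcm6 and Rrm2 were not called without WT left replicate 1 (differences of 0.27 to 0.58 over all fits that left out 1 array for the first 3). With the poly-A level as a term, 3 members stayed called in the left ventricle: Ccnd2 at 0.70, Mcm2 at 0.43 and Mcm3 at 0.59 (limma adjusted p = 0.00381, 0.0418 and 0.0271). Without the pools of highest and lowest nuclear RNA, 6 members were called: Ccnd2, Mcm7, Bub1b, Cenpe and Cdkn1b, and Mki67, which all 12 arrays did not call, at 0.76 (limma adjusted p = 0.0221). Mcm2 (0.38) and Mcm3 (0.42) had limma adjusted p of 0.0593 and 0.0775 there. Of all genes, 14.1% and 15.0% were called in these fits.

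**Figure D3:**
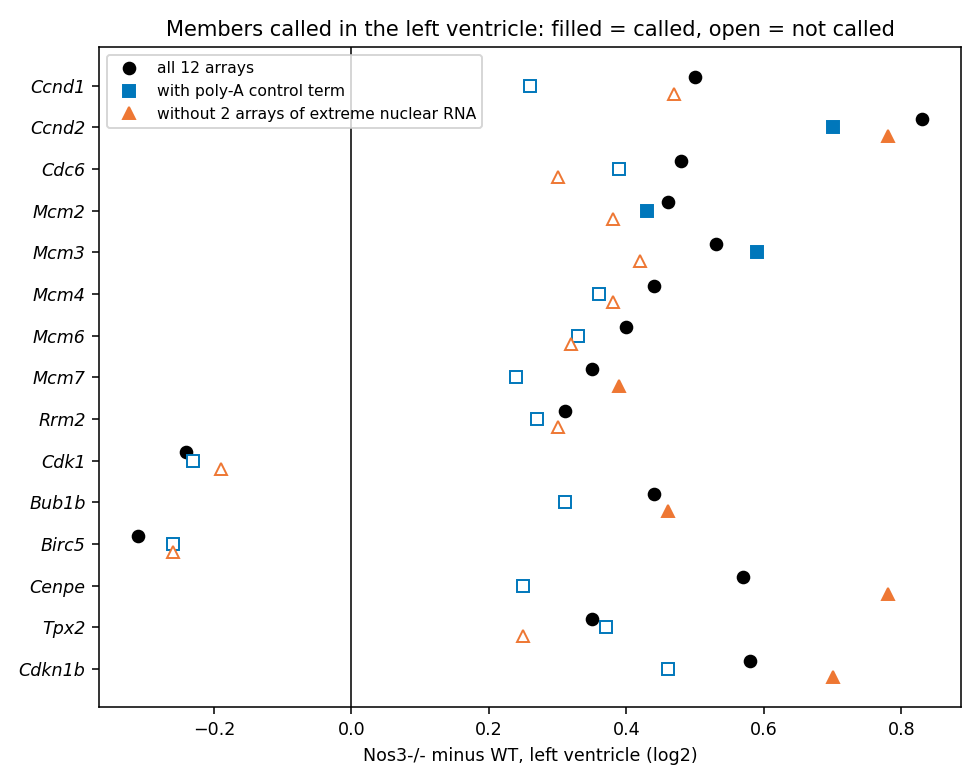
For the 15 members called in the left ventricle, the difference Nos3-/- minus WT (log2) is drawn from all 12 arrays (circles), with the poly-A level as a term (squares) and without 2 arrays of extreme nuclear RNA (triangles); filled symbols passed the adjusted threshold. Every symbol lies on the same side of 0 as its circle, and Ccnd2 is the gene filled in all 3 settings.

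Mitosis genes changed in both directions in the left ventricle: 3 of 15 rose and 2 fell, shares of 20% and 13.3% that lie near the 18.6% and 12.3% of all genes. Cenpe, a kinetochore motor, measured 8.93, 9.02 and 8.57 in WT left and 9.38, 9.68 and 9.18 in Nos3-/- left. The groups did not overlap and differed by 0.57 (SE 0.19, limma adjusted p = 0.036), but the call was lost without WT left replicate 1 (0.62) or 3 (0.44) or Nos3-/- left replicate 1 (0.59) or 2 (0.44). With the poly-A level as a term it was 0.25 (limma adjusted p = 0.429). Bub1b, which encodes the spindle checkpoint kinase BubR1, measured 9.59, 9.57 and 9.33 against 9.90, 9.94 and 9.96, a difference of 0.44 (SE 0.10, limma adjusted p = 0.00627). Its other probe set above the overall median was higher by 0.49. Tpx2, which activates Aurora A at the spindle, measured 9.11, 9.14 and 9.13 in WT left and 9.35, 9.39 and 9.70 in Nos3-/- left. The difference was 0.35 (SE 0.10, limma adjusted p = 0.0192), while its 2 other probe sets above the median differed by -0.06 and 0.52. This call was lost without WT left replicate 1 (0.35) or Nos3-/- left replicate 3 (0.24).

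The members that fell were Birc5 and Cdk1. Birc5, or survivin, a subunit of the chromosomal passenger complex, measured 11.71, 11.73 and 11.64 in WT left and 11.46, 11.38 and 11.32 in Nos3-/- left. All Nos3-/- pools were lower, and the difference was -0.31 (SE 0.08, limma adjusted p = 0.0129). Cdk1, the kinase of mitotic entry, measured 11.96, 11.99 and 11.73 against 11.67, 11.63 and 11.67. The difference was -0.24 (SE 0.08, limma adjusted p = 0.0447), with WT left replicate 3 close to the Nos3-/- pools, and it was called in 2 of the 12 fits that left out 1 array. Centring each array on its median moved it to -0.14, and no member was then called lower in the left ventricle.

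Of the 15 mitosis genes, 9 were higher on average on the left and 6 lower. Mki67 and Top2a were among those that were higher but did not pass. Mki67, the gene of the Ki-67 protein of cycling cells, measured 10.89, 11.04 and 10.42 in WT left and 11.31, 11.52 and 10.91 in Nos3-/- left. The groups overlapped, and the difference of 0.46 had a limma adjusted p of 0.0707. Top2a, topoisomerase II alpha, measured 11.39, 11.37 and 10.98 against 11.65, 11.71 and 11.67. These pools did not overlap, yet the limma adjusted p of the 0.43 difference was 0.0552, and another probe set of the gene differed by -0.62. Ccna2, cyclin A2, differed by 0.22 (limma adjusted p = 0.0517) and Ccnb2, cyclin B2, by -0.20 (limma adjusted p = 0.0501). Of the remaining mitosis genes, Kif11 differed by 0.26, Aurkb by 0.21, Plk1 by 0.16, Cdc20 by -0.04, Aurka by -0.16 and Bub1 by -0.20, none of them called. Another probe set of Cdc20 was lower by -0.38 on the left and -0.24 on the right.

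Bub1 was the member whose probe sets disagreed most. The set used measured 10.87 ± 0.20 in WT left, 10.68 ± 0.03 in Nos3-/- left, 10.58 ± 0.14 in WT right and 10.61 ± 0.02 in Nos3-/- right (SD, n = 3). A second set of the gene measured 5.44 ± 0.13, 7.72 ± 0.04, 5.28 ± 0.28 and 7.54 ± 0.17 in the same order, a difference of 2.28 in the left and 2.26 in the right ventricle. Such a gap was not seen in the brighter set, whose differences were -0.20 and 0.03. Among the 42 other probe sets of members above the overall median, 11 in as many members had the opposite sign to the set used or lay over 0.5 from it in a genotype comparison. Besides those of Bub1, Top2a, Mcm4, Mcm5 and Tpx2, they were sets of Ccna2 (-0.01 left and -0.22 right), Ccnd3 (-0.24 left), Cdc45 (-0.11 right), Mcm2 (0.02 right), Mcm3 (-0.03 right) and Ccnd2 (1.05 right). Of the 15 other sets not above the median, 10 in 8 members departed in the same way.

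The 2 inhibitors differed from each other. Cdkn1b measured 9.66, 9.63 and 9.27 in WT left and 10.06, 10.27 and 9.97 in Nos3-/- left. In the right ventricle it measured 9.60, 9.53 and 9.32 in WT and 10.13, 10.31 and 10.07 in Nos3-/-. The genotypes were apart in both ventricles, by 0.58 (SE 0.12, limma adjusted p = 0.00353) and 0.69 (SE 0.12, limma adjusted p = 0.00418), that is 1.49-fold and 1.61-fold. With the poly-A level as a term the left difference was 0.46 (limma adjusted p = 0.0565) and the right one 0.60 (limma adjusted p = 0.0295). The other probe set of Cdkn1b lay below the overall median, with a mean of 4.26. It went the other way, by -0.07 on the left and -0.46 on the right. Cdkn1a (p21), an inhibitor induced by p53, measured 8.75, 8.39 and 8.76 in WT left and 8.82, 8.85 and 8.89 in Nos3-/- left. In the right ventricle it measured 9.09, 8.84 and 8.92 against 9.04, 8.82 and 9.04. Its left pools did not overlap but its right pools did, and neither difference, 0.22 or 0.02, was called.

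**Figure D4:**
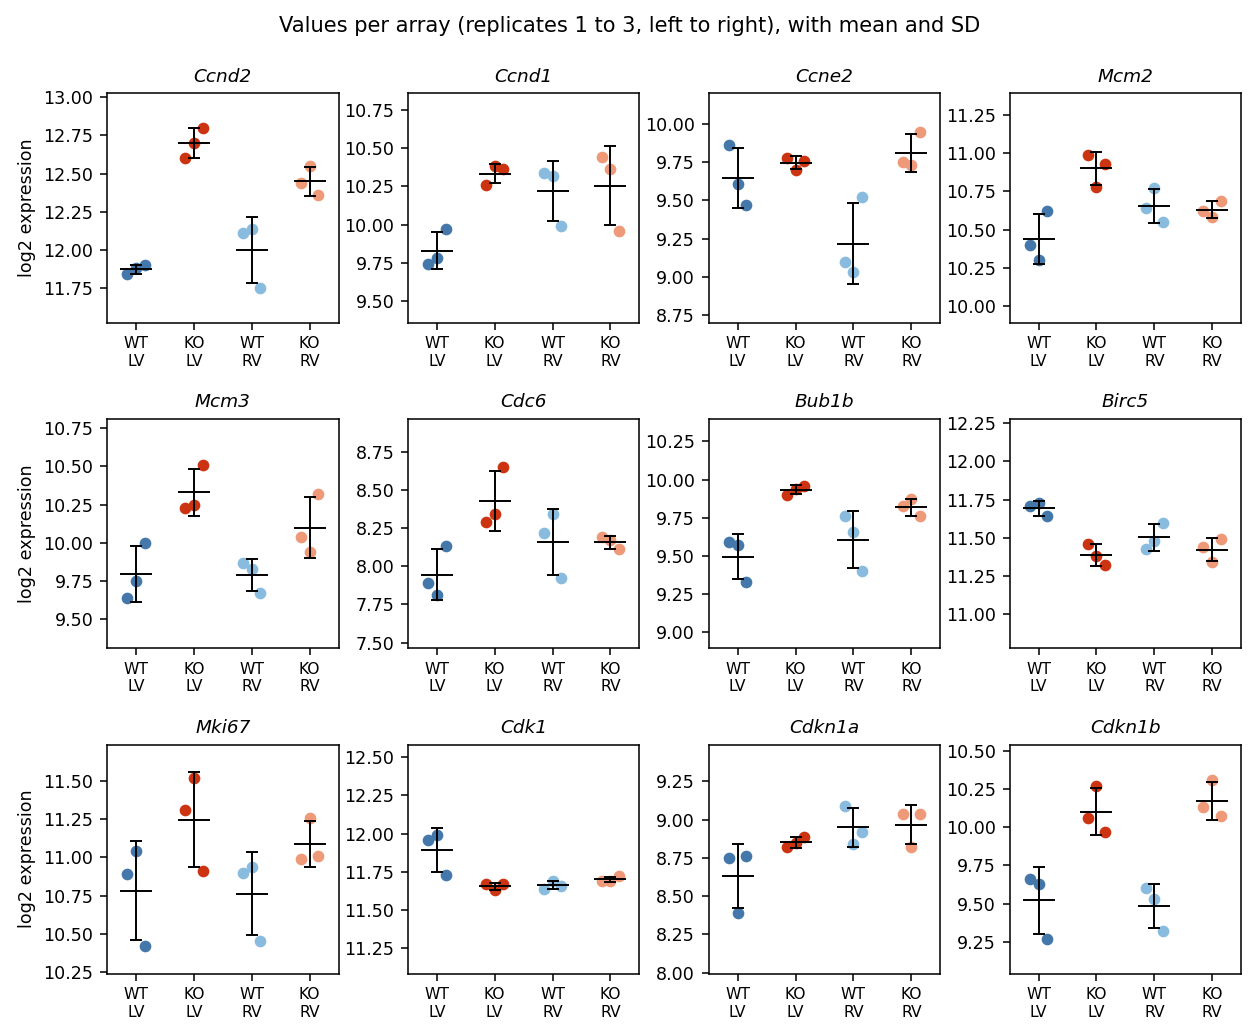
Log2 values of 12 members on every array (points, replicates 1 to 3 from left to right), with the mean and SD of 3 arrays, in WT and Nos3-/- (KO) left (LV) and right (RV) ventricles; each panel has its own log2 axis. Ccnd2 and Cdkn1b lie higher in the Nos3-/- pools of both ventricles, whereas Ccne2 is lowest in WT right.

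In the right ventricle 4 members were higher in Nos3-/- and none lower. They were 10.5% of the members against 8.19% of all genes, or against 4.61% in the higher and 3.58% in the lower direction. The median difference of the members was 0.05 and that of all genes -0.04, and 26 of 38 differences were positive. Before adjustment 6 members (15.8%) had p under 0.05, fewer than the 25.9% of all genes. Pools did not overlap for 8 members in the higher and 1 in the lower direction, against 11.8% and 17.6% of all genes. The count was 2 without WT right replicate 3, or without any 1 of the Nos3-/- right arrays.

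Ccnd2 measured 12.11, 12.14 and 11.75 in WT right and 12.44, 12.55 and 12.36 in Nos3-/- right. The genotypes did not overlap, and the difference was 0.45 (SE 0.11, limma adjusted p = 0.0196), a 1.37-fold higher level. WT right replicate 3 was the lowest pool, and without it the difference was 0.33 (limma adjusted p = 0.0564), and with the poly-A level as a term 0.35 (limma adjusted p = 0.104). The 6 other probe sets were higher by 0.50 to 1.05. Ccne2, cyclin E2, measured 9.10, 9.03 and 9.52 in WT right and 9.75, 9.73 and 9.95 in Nos3-/- right, a difference of 0.59 (SE 0.13, limma adjusted p = 0.0137). Here WT right replicate 3 lay nearest to the Nos3-/- pools, and the difference was 0.75 without it (limma adjusted p = 0.00217). The call was lost without WT right replicate 2 (0.50) or Nos3-/- right replicate 3 (0.52). Kif11, the motor that pushes spindle poles apart, measured 8.93, 8.93 and 8.57 in WT right and 9.24, 9.16 and 9.11 in Nos3-/- right. This difference of 0.36 (SE 0.10, limma adjusted p = 0.0383) became 0.24 without WT right replicate 3 (limma adjusted p = 0.104) or 0.24 with the poly-A level as a term (limma adjusted p = 0.182), and was called in 4 of the 12 fits that left out 1 array. Cdkn1b was higher by 0.61 without that array (limma adjusted p = 0.0185).

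None of the 12 replication genes was called in the right ventricle, where 8.19% of all genes were. Their median difference there was 0.09, against -0.04 over all genes. Other probe sets of 3 of them were higher by more than the sets used: Mcm4 by 0.50 (0.12 in the set used), Mcm6 by 0.48 (0.15) and Mcm7 by 0.40 (0.14). Mcm3 measured 9.87, 9.83 and 9.67 in WT right and 10.04, 9.94 and 10.32 in Nos3-/- right. These pools did not overlap, but the limma adjusted p of the 0.31 difference was 0.137. Mcm2 measured 10.64, 10.77 and 10.55 against 10.62, 10.58 and 10.69, and Cdc6 8.22, 8.34 and 7.92 against 8.19, 8.17 and 8.11, with overlap in both and differences of -0.02 and 0.00. Ccnd1 measured 10.34, 10.32 and 9.99 in WT right and 10.44, 10.36 and 9.96 in Nos3-/- right, with 1 pool of each genotype low. Its 2 other probe sets disagreed here, at 0.00 and 0.44, the latter with 9.97 ± 0.05 in WT right and 10.41 ± 0.07 in Nos3-/- right (SD, n = 3). Cdk1 measured 11.64, 11.69 and 11.66 against 11.69, 11.69 and 11.72, a difference of 0.04. Mki67 measured 10.90, 10.94 and 10.45 against 10.99, 11.26 and 11.01. Its pools did not overlap, and the 0.32 difference had a limma adjusted p of 0.285.

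The 2 genotype comparisons use different arrays, but the titles do not say whether left and right ventricles came from the same embryos. Of the members, 2 were called in both comparisons, 13 in the left alone and 2 in the right alone. Of all genes, 30.9% were called on the left and 8.19% on the right. Whether a difference was larger in one ventricle was tested with the interaction of genotype and ventricle. No member passed with limma (8, or 21.1%, had an unadjusted p under 0.05, against 13.9% of all genes), and 0.022% of all genes did. The largest members by size were Tyms at 0.90 (SE 0.48), Cdc6 at -0.49 (SE 0.18), Ccne2 at 0.49 (SE 0.18), Mcm2 at -0.48 (SE 0.14) and Ccnd1 at -0.47 (SE 0.18), where a negative value means a smaller Nos3-/- minus WT difference on the right. Their limma adjusted p lay between 0.314 and 0.396. Without WT right replicate 3, 4 members passed: Ccnd2 at -0.50, Cdc6 at -0.61, Mcm2 at -0.53 and Ccne2 at 0.65 (limma adjusted p = 0.0335, 0.0457, 0.0452 and 0.0324). They are 10.5% of members, and 7.19% of all genes passed in that fit.

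The ventricles of one genotype were compared as well, right minus left. In WT no member passed limma's threshold (7, or 18.4%, had an unadjusted p under 0.05, against 17.1% of all genes), against 0.984% of all genes. Without overlap of the WT pools, 7 of 38 members lay lower on the right and 2 higher. Of all 18194 genes, 882 lay lower and 1982 higher in this way. Of the 15 mitosis genes, 5 lay lower and 0 higher. Ccne2 was lower in WT right by -0.43 and Ccnd1 higher by 0.39, with limma adjusted p of 0.132 and 0.165, and without WT right replicate 3 these became -0.58 and 0.50 (limma adjusted p = 0.0115 and 0.0327). In Nos3-/- no member passed either (5, or 13.2%, had an unadjusted p under 0.05, against 10.3% of all genes), against 1.14% of all genes. There the replication genes had a median of -0.22, and 11 members lay lower in every right pool than in every left pool and 2 higher, against 10.4% and 9.24% of all genes. Among the lower ones were Mcm2 at -0.27, Cdc6 at -0.27, Mcm7 at -0.25 and Ccnd2 at -0.25, all uncalled.

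Other cell cycle genes were grouped into 5 lists with 172 measured genes. In the left ventricle 34 of these rose (19.8%, against 18.6% of all genes) and 31 fell (18%, against 12.3%), with a median of 0.05. In the right 8 rose (4.65%, against 4.61%) and 1 fell (0.581%, against 3.58%), with a median of 0.07. The shares that rose were close to those of all genes. Replication factors outside the member list went both ways on the left: 9 of 43 rose (20.9%) and 13 fell (30.2%), with a median of 0.02. Those that rose most were Uhrf1 (0.55), which guides maintenance DNA methylation, Rfc1 (0.52), the large subunit of the clamp loader, and Pole (0.50), the catalytic subunit of DNA polymerase epsilon. Another probe set of Uhrf1 was higher by 0.10, and others of Rfc1 by 0.34 and 0.47. Those that fell most were Rpa3 (-0.93), a subunit of the single-strand binding protein, Cdc7 (-0.69), the kinase that fires origins, and Prim1 (-0.58), a primase subunit. Gins1, Gins2 and Gins4, which join the Mcm helicase and were chosen after their values were seen, fell by 0.39, 0.50 and 0.52, and Gins3 differed by -0.15. With the poly-A level as a term Rpa3 (-0.45), Prim1 (-0.40) and Gins2 (-0.26) were no longer called, whereas Cdc7 (-0.88) was, and Cdc7 was at -0.41 and uncalled without the 2 arrays of extreme nuclear RNA. In the right ventricle Tipin (0.48) and Dut (0.38) rose and no replication factor fell, with another probe set of Dut at -0.21.

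Of the 25 regulators of G1 and S phase, 7 rose on the left (28%, against 18.6% of all genes) and 3 fell (12%, against 12.3%), with a median of 0.16. Lin9 (0.91), a subunit of the MuvB complex, and the repressor genes E2f7 (0.78) and E2f8 (0.66) led those that rose. Cdk7 (-0.45) and Mnat1 (-0.36), both of the Cdk-activating kinase, and E2f6 (-0.30) led those that fell, although 3 other probe sets of Cdk7 were higher by 0.38 to 0.49 and another of E2f6 by 1.58. None of the 25 was called on the right with limma, where 10 had an unadjusted p under 0.05. With the poly-A level as a term, E2f7 (0.56) and E2f8 (0.56) remained called, and Lin9 (0.53) and Cdk7 (-0.21) did not.

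Of 63 further mitosis genes, 11 rose (17.5%) and 7 fell (11.1%) on the left, shares close to the 18.6% and 12.3% of all genes. On the right 4 rose (6.35%, against 4.61%) and none fell. Ncapd2, a condensin subunit, rose in both ventricles by 1.01 and 0.82 (limma adjusted p = 0.000242 and 0.00309), though another probe set differed by -0.03 and 0.25. Nuf2, of the kinetochore's Ndc80 complex, rose by 0.54 and 0.86 (limma adjusted p = 0.000906 and 7.2e-05). Kntc1 (0.56) and Ncaph (0.55) also rose on the left and Kif20b (0.54) on the right, where another of its probe sets was at -0.14, while Spc24 (-0.48), Mad2l1 (-0.45) and Cenpa (-0.44) fell on the left. A second probe set of Cenpa, the centromeric histone gene, was lower by -3.20.

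Of 17 genes of the ubiquitin ligases that degrade cyclins, 3 rose (17.6%, against 18.6% of all genes) and 5 fell (29.4%, against 12.3%) on the left. Btrc (0.48), Fbxw7 (0.46) and Anapc1 (0.38) rose most, and Rbx1 (-0.85), Anapc10 (-0.53) and Anapc11 (-0.52) fell most. Anapc11 was also the single gene that fell on the right (-0.33), but another of its probe sets was at 0.01 there and at -0.19 on the left. Of the 24 further inhibitors and checkpoint genes, 4 rose (16.7%) and 3 fell (12.5%) on the left, again near the shares of all genes. Ccng1, a target of p53, rose by 0.61 on the left and 0.69 on the right (limma adjusted p = 0.000219 and 0.0002), and Wee1, the kinase that holds Cdk1 inactive, by 0.78 and 0.52. Btg2 (1.09), an antiproliferative gene, rose on the left, where Ccng2 (-0.41), Cdkn2b (-0.33) and Gadd45g (-0.29) fell. Other probe sets differed on the left by 0.25 for Btg2, 0.08 and 0.40 for Ccng1, 0.39 for Wee1 and -0.64 for Ccng2. On the right those of Ccng1 differed by 0.41 and 0.57 and that of Wee1 by 0.12. Cdkn1c (p57) differed by 0.14 and 0.05 and was not called. Of the 65 left calls of the 5 lists, 32 held with every array left out in turn, 15 with the poly-A level as a term and 21 without the 2 arrays of extreme nuclear RNA. Btg2 was at 0.50, Anapc10 at -0.24 and Mad2l1 at -0.29 with the poly-A level as a term, and on the right Kif20b at 0.32, none of them called. Of the 9 right calls, 4, 6 and 4 held in these fits, and the calls of Kif20b (0.39) and Anapc11 (-0.24) were lost without WT right replicate 3. Named genes of the left that lost their call without at least 1 array were Pole, Cdc7, Rbx1, Cdk7, Mnat1, E2f6, Mad2l1, Anapc1, Anapc10, Fbxw7, Gins2, Btg2, Cdkn2b and Gadd45g, and those of the right were Tipin, Dut, Kif20b and Anapc11.

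Markers of other cell types also differed between the genotypes, some lists upward and others downward. Of all genes, 18.6% were called higher and 12.3% lower on the left, and 4.61% and 3.58% on the right. All 6 macrophage and leukocyte markers were called higher in Nos3-/- left, and their mean was 7.05 to 7.22 in WT left and 7.92 to 8.19 in Nos3-/- left. In the right ventricle 2 of the 6 were called, with means of 7.06 to 7.11 and 7.36 to 7.62. Endothelial markers were called higher in 4 of 6 on the left, with means of 8.55 to 8.94 and 9.18 to 9.44, and in none on the right. Mesenchymal markers were called higher in 2 of 5 on the left, with means of 11.05 to 11.42 and 11.67 to 11.92. Of the fetal liver markers, 2 of 5 were called lower on the left. Their means there were 6.87 to 8.38 in WT and 5.64 to 6.63 in Nos3-/-. None was called on the right, though all 5 were lower on average in Nos3-/- there too. Right means were 7.08 to 9.58 in WT, with replicate 1 at 9.58, and 6.61 to 7.52 in Nos3-/-. The median difference of these markers was -1.12 on the left and -1.32 on the right. Erythroid markers were called higher in 2 of 7 and lower in 1 on the left, and lower in 2 on the right. Cardiomyocyte markers were called higher in 2 of 8 on the left, with means of 13.76 to 13.82 and 13.96 to 14.08, and in none on the right. Atrial markers were called higher in 2 of 4 on the left and 1 on the right, and epicardial markers in 1 of 4 on the left. The part of these cells in the cell cycle differences was not tested.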

How the data were processed

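Ventricle RNA was measured on 12 Affymetrix arrays. The values are the log2 expression values deposited by the authors, made with RMA per the submitters' processing notes, with no version stated. RMA quantile-normalizes arrays, so a change common to most genes can be masked. Of 45101 probe sets, 34958 had 1 gene symbol, 932 several and 9211 none. Each gene kept its brightest single-symbol set, giving 18194 genes, which were fitted in limma 3.58.1 (R 4.3.3) as a model of 4 group means with eBayes and Benjamini-Hochberg adjustment over all genes. Precision is limited by 3 arrays a group. The test was tested on simulated data. Members, lists and naming rules were chosen with earlier results of these data known. By the naming rule, values on every array are given for up to 4 called members per phase and ventricle with the largest differences and for Ccnd1, Ccnd2, Cdk1, Mki67, Cdkn1a and Cdkn1b, and up to 3 called genes per direction from each other list are named; Mcm2, Mcm3 and Cdc6 on the right, Top2a, and the members named for the interaction and the ventricle comparisons were added after their values were seen. The 21 alternatives chosen first changed normalization, scaling, filter, probe set rule, variance model, array weights, groups, threshold, replicate block and left-out arrays; the poly-A term and the fit without 2 arrays were added after seeing the data. Figures were drawn with matplotlib 3.10.9. Promoter windows were matched by symbol to RefSeq (GRCm38.p6).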

Additional observations from a re-analysis of the deposited data

How the results depend on the processing

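Of the members' differences, 1 changed direction: Bub1 in the left ventricle was 1.04 (limma adjusted p = 2.17e-05) with the mean of its probe sets, by the second set described above. The 15 members called in the left ventricle became 23 with array weights, 7 at an adjusted p under 0.01, 3 with the poly-A control term and 6 without the 2 arrays of extreme nuclear RNA, and between 10 and 21 when each array was left out in turn. The 4 called in the right ventricle became 2 with only the groups compared, 1 at an adjusted p under 0.01 and 2 with the poly-A control term, and between 2 and 4 with each array left out, 2 of them without WT right replicate 3 or any 1 Nos3-/- right array. The interaction, with 0, gave 4 with array weights and between 0 and 4 with each array left out. WT right minus left, with 0, gave 6 with array weights and between 0 and 2 with each array left out, and Nos3-/- right minus left gave 0 in every alternative. The cause was not tested. The replicate block, the number in the titles as a term, gave 20 members on the left (17 higher, 3 lower) and 4 on the right. Across deviations from group means, same-numbered left and right arrays of a genotype correlated at -0.01 to 0.29. The pair of WT replicate 2 was at -0.01 and the others at 0.15 to 0.29, while differently numbered arrays correlated at -0.28 to 0.02. The titles do not say whether the same number means the same embryos, so the pairing stays unsettled. Median centring moved the share of higher calls among all genes from 60.1% to 77.9% on the left and from 56.2% to 69.5% on the right, and the members called on the left to 19 higher and 0 lower. All genes called ranged over the alternatives from 2558 to 6589 on the left, 533 to 2858 on the right, 2 to 1364 for the interaction, 41 to 2212 for WT right minus left and 93 to 684 for Nos3-/- right minus left. With only the groups compared, the interaction is the same fit and was not run. The poly-A term is estimated within groups, and its levels spread most within Nos3-/- right (7.35 to 8.37) and WT right (8.05 to 8.96). WT right is the only group with levels both like those of WT left and like those of Nos3-/-.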
